A study of Mus musculus with 8 samples.

Results

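miR-21a is a mouse microRNA (miRNA) made from a single hairpin, and both products of that hairpin, the 5p arm miR-21a-5p and the 3p arm miR-21a-3p, were followed through 8 small-RNA libraries of NIH-3T3 cells, an immortalised fibroblast line from mouse embryos. The 2 arms are 2 of the 441 mature miRNAs counted. An insert counted for an arm when its first 20 bases were those of the arm, whatever its 3′ end. Of the 8 libraries, 3 carry the label G0, the resting state outside the cell cycle. These are cells starved of serum for 48 h (serum 0 h) and cells held by contact inhibition for 3 and 5 days after plating at 12% confluency. The other 5 are starved cells given 20% serum and collected after 12 h (labelled G1), 16 h (S), 20 h (G2/M) and 24 h (G1), and the asynchronous cells of contact day 0. All cells were passaged in medium with 10% serum, no genetic change or drug is given for any group, and each condition has 1 library.

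A miRNA hairpin is cut first in the nucleus by Drosha and then in the cytoplasm by Dicer, which leaves a short duplex of both arms. A strand of the duplex is kept in an Argonaute protein and guides it to messenger RNAs through its seed, the bases near its 5′ end, while the other strand is mostly lost. After cutting, the 3′ end can be trimmed or can receive bases that the gene does not encode. miR-21 is known as an abundant miRNA of fibroblasts that growth factors and the AP-1 transcription factor induce, with Pdcd4 among its repressed targets, and it is widely studied in cancer and fibrosis.

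The Mir21a hairpin lies on the minus strand of chromosome 11 (GRCm38, 86584067 to 86584158), within the 3′ untranslated part of exon 12 of Vmp1, the gene of a membrane protein of autophagy. In RefSeq (GRCm38.p6) the 5p arm occupies chr11:86584120-86584141 and the 3p arm chr11:86584082-86584103, both on the minus strand. Their mature sequences are shown 5′ to 3′ because they fix what was counted, with the seed (bases 2 to 8) in capitals.
miR-21a-5p: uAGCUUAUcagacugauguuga
miR-21a-3p: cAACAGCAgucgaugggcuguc
Most reads of the 5p arm ended at 1 of 2 neighbouring positions, and the 24-nt reads were mostly of 2 kinds. These 3 longer forms are shown because the length and 3′ end results turn on them, with the bases past position 22 in capitals. The C at position 23 and the U at position 24 are encoded by the hairpin, while the A at position 24 of the last form is not.
23-nt form: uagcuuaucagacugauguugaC
24-nt form, encoded: uagcuuaucagacugauguugaCU
24-nt form, untemplated A: uagcuuaucagacugauguugaCA
The 2 arms have different seeds. The first 20 bases of each arm occur in 1 annotated hairpin only. Of the mouse miRNAs in the counts or in the RefSeq table, only miR-21c shares the seed of miR-21a-5p. It had 0 reads in all 8 libraries, as did the near copy miR-21b.

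The libraries held 707202 to 8512472 reads, of which 137600 to 892593 were assigned to mature miRNAs, or 1.85% to 57.7% of all reads. From 233 miRNAs (serum 12 h) to 413 (serum 16 h) were detected. Inserts shorter than 16 nt made up 28.1% of reads at serum 0 h, against 0.566% to 1.83% in the other 7 libraries. A single insert sequence made up 48.7% to 75.6% of all reads in the serum libraries and 4.13% to 5.92% in the contact libraries. Markers of fibroblasts and other mesenchymal cells were present in every library: all 5 listed miRNAs were counted, with a summed level of 44846 to 313729 counts per 1000000 miRNA reads after TMM scaling (CPM). The serum 0 h library stood apart in the markers of other cell types. Its 6 counted epithelial markers summed to 2367 CPM, against 0 to 55.2 CPM in the other 7 libraries, with miR-200c-3p at 1156 CPM and miR-205-5p at 0. Of the blood markers, miR-142a-3p had 62 reads and miR-142a-5p had 45 in that library, and each had 0 in the other 7, while miR-451a had 0 there and 0 to 4 reads elsewhere. The 3 counted markers of pluripotent cells summed to 714 CPM at serum 12 h and to 0 to 169.8 CPM elsewhere, and the 3 neural markers to 0 at 12 h and 440.1 to 879 CPM elsewhere. The 2 counted muscle markers summed to 913 CPM on contact day 0 and to 135 to 351 CPM elsewhere. The part of these in the values of miR-21a was not tested.

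miR-21a-5p was among the most abundant miRNAs of these cells, at rank 2 by mean CPM and rank 3 by mean share of miRNA reads (7.43% over the 8 libraries). In the serum experiment, its share of miRNA reads was 10.3% at 0 h (95% interval 10.2% to 10.5%, from 24611 reads), 5.41% at 12 h (5.32% to 5.51%, 10996 reads), 9.26% at 16 h (9.20% to 9.32%, 82682 reads), 6.05% at 20 h (5.94% to 6.16%, 11106 reads) and 6.21% at 24 h (6.08% to 6.34%, 8544 reads). In the contact experiment it was 2.67% on day 0 (2.62% to 2.73%, 8723 reads), 6.60% on day 3 (6.53% to 6.67%, 28909 reads) and 12.9% on day 5 (12.8% to 12.9%, 59409 reads). The share was highest in the cells arrested longest by contact, next in the serum-starved cells, and lowest in the asynchronous cells.

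The highest share was 4.80-fold the lowest. From low to high the order was contact day 0, serum 12 h, 20 h and 24 h, contact day 3, serum 16 h, serum 0 h and contact day 5. The intervals of 20 h and 24 h overlapped, and all other neighbours in the order were apart by more than counting error, with no replicates to show the spread between cultures. By rank, miR-21a-5p stood at 2 at serum 0 h and on contact day 5, at 3 at 16 h, at 4 at 12, 20 and 24 h and on day 3, and at 11 on day 0. The 3 G0 libraries did not all lie above the other 5, since the S-phase library at 16 h exceeded contact day 3. For 3.44% of the 349 miRNAs with at least 10 CPM in at least 3 libraries they did. In these bulk samples, fewer cells with the miRNA and less of it per cell cannot be told apart.

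**Figure D1:**
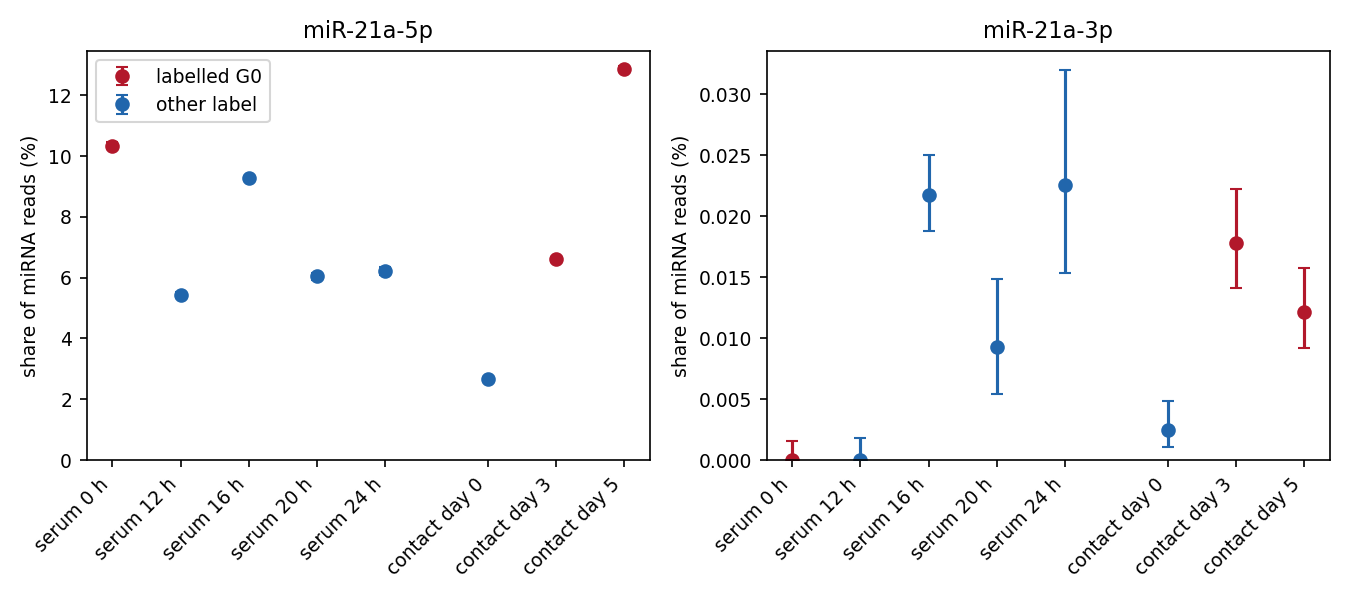
Share of miRNA reads (%) of miR-21a-5p (left) and miR-21a-3p (right) in each library, with the 3 libraries labelled G0 in red, the other 5 in blue, and bars for the 95% exact binomial interval. The 5p arm was highest on contact day 5 (12.9%) and at serum 0 h (10.3%), while the 3p arm had no reads at serum 0 h and 12 h and was at most 0.0225%.

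On the CPM scale, which corrects for shifts in the makeup of a library, miR-21a-5p stood at 80364 at 0 h, 39255 at 12 h, 82549 at 16 h, 51081 at 20 h and 49228 at 24 h of the serum experiment. It stood at 41283, 79566 and 205365 CPM on contact days 0, 3 and 5. The scales ordered the libraries differently: by CPM the lowest was serum 12 h rather than contact day 0, and 16 h lay slightly above 0 h. Relative to plain shares, the TMM scaling moved the ratios compared within an experiment by −0.36 (contact day 3 over day 0) to 0.41 (day 5 over day 3) on the log2 scale. It moved ratios of a contact over a serum library by 0.44 to 1.14, so levels set across the experiments depend on the scaling.

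Without replicates, pairs of conditions were compared as ratios of CPM, with an interval for counting error only. miR-21a-5p was 2.05-fold (2.00 to 2.09) as high in starved cells at 0 h as at 12 h after serum. Of the 180 miRNAs compared there, 29.4% were at least 2-fold higher at 0 h with an interval above 1, so a change of this size was common. On shares the same ratio was 1.91. Against 20 h and 24 h the starved cells had ratios of 1.57 (1.54 to 1.61) and 1.63 (1.59 to 1.67). Against 16 h the ratio was 0.974 by CPM and 1.12 by shares, so its direction depended on the scaling.

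Within the cycle after serum, miR-21a-5p was 2.10-fold (2.06 to 2.15) higher at 16 h than at 12 h, where 32.4% of the miRNAs compared were at least 2-fold higher, and by shares 1.71-fold. The level at 20 h was 0.619 of that at 16 h (0.607 to 0.631). At 24 h it was 0.964 of that at 20 h by CPM and 1.03 by shares, a difference whose sign depended on the scaling. The G1 cells at 24 h had 1.25 times the level of the G1 cells at 12 h (1.22 to 1.29), or 1.15 times by shares.

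Contact inhibition gave the largest ratios. miR-21a-5p was 1.93-fold (1.88 to 1.97) higher on day 3 than on day 0 by CPM and 2.47-fold by shares, where 28.8% of the miRNAs compared were at least 2-fold higher. On day 5 it was 4.97-fold (4.86 to 5.09) higher than on day 0 and 2.58-fold (2.55 to 2.62) higher than on day 3. Of the miRNAs compared, 38.0% were at least 2-fold higher on day 5 than on day 0, and 23.2% on day 5 than on day 3. The ratio of day 5 over day 3 was 1.95 by shares.

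The 3 G0 libraries were set against the other 5 with the experiment as a term in edgeR's quasi-likelihood test. The G0 difference of miR-21a-5p was 1.11 on the log2 scale (SE 0.48), with an unadjusted p of 0.0313 and a Benjamini-Hochberg adjusted p of 0.438 over the 349 miRNAs tested, so it did not pass the threshold of 0.05. In that test 0.573% of the miRNAs were called higher in G0. These 2 were miR-503-5p (3.31, adjusted p 0.00697) and miR-10a-5p (3.13, adjusted p 0.0198). Before adjustment, 36 lay under 0.05. The median difference over all 349 was −0.22, with 155 above 0 and 194 below. The difference of miR-21a-5p rested in part on single libraries: it was 1.97 without serum 0 h (adjusted p 0.510), 0.53 without contact day 0 (adjusted p 0.741) and 0.53 without contact day 5 (adjusted p 0.621) by the same edgeR test.

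The interaction term, which asks whether contact arrest and starvation differ in this respect, gave 1.25 (SE 0.85, contact minus serum) for miR-21a-5p, with an adjusted p of 0.882 by edgeR. No miRNA was called in that test (0.0%), and 14 lay under 0.05 before adjustment.

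miR-21a-3p, the arm that is mostly lost, had few reads. In the serum experiment its reads numbered 0 at 0 h, 0 at 12 h, 194 at 16 h, 17 at 20 h and 31 at 24 h. On contact days 0, 3 and 5 they numbered 8, 78 and 56. These are shares of miRNA reads of 0.0217%, 0.00925% and 0.0225% at 16, 20 and 24 h, and of 0.00245%, 0.0178% and 0.0121% on contact days 0, 3 and 5. The 2 libraries at 0 include a G0 library and a G1 library, so the groups overlapped.

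A count of 0 allows a share of up to 0.00126% at serum 0 h and 0.00148% at 12 h (3 counts per library), which are 9.80 and 10.7 CPM. Both limits lie below the lowest level measured elsewhere, 37.9 CPM on contact day 0. Absence of a miRNA of this level was not rare in the 2 libraries. Of 84 miRNAs within 2-fold of its mean share in the other 6 libraries, 10 (11.9%) had no reads at 0 h, 25 (29.8%) none at 12 h and 5 (5.95%) none in either.

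With the serum 0 h library set to 3 counts, the CPM level of miR-21a-3p was at most 0.0506 of that at 16 h and at most 0.0548 of that at 24 h. Among the miRNAs with at least 100 reads in either library, 12.3% were at most 0.5 times as high at 0 h as at 16 h, and 14.0% at 0 h as at 24 h. These bounds hold for reads of at least 20 nt from the first base of the arm. With the first 18 bases matched, the 0 h library had 30 reads. The ratios were then 0.396 (0.261 to 0.579) over 16 h and 0.515 (0.304 to 0.871) over 24 h. Another 35 hairpin-matching reads at 0 h began 1 base later and count under neither rule. With the 12 h library set likewise, the 3p arm was at least 18.1-fold higher at 16 h and at least 16.7-fold higher at 24 h than at 12 h. An increase of at least 2-fold was found for 32.4% of miRNAs at 16 h and for 10.7% at 24 h over 12 h. Neighbouring times differed too: at 20 h it was 0.404 (0.230 to 0.663) of the level at 16 h, and at 24 h it was 2.28 times (1.23 to 4.40) that at 20 h. Counting only reads that match the hairpin throughout, the ratio of 24 h over 20 h was 1.77 (0.911 to 3.51), within counting error of no difference. Of the miRNAs compared, 12.0% were at most 0.5 times as high at 20 h as at 16 h, and 3.05% had 2 times the level or more at 24 h relative to 20 h. With 31 and 17 reads, miR-21a-3p is itself below the 100 reads that this last set requires, as it is for 24 h over 12 h, 0 h over 24 h and contact day 3 over day 0, so those shares come from more deeply counted miRNAs.

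On contact day 3 miR-21a-3p was 5.67-fold (2.74 to 13.6) as high as on day 0, and on day 5 it was 5.11-fold (2.42 to 12.4) as high. Of the miRNAs compared, 21.6% had at least 2 times the level on day 3 that they had on day 0. The ratio of day 5 over day 3 was 0.902 (0.628 to 1.29) by CPM, within counting error of 1, and 0.680 (0.474 to 0.972) by shares, so that call depended on the scaling. The 5p arm was higher on day 5 than on day 3 on both scales.

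The edgeR G0 difference of miR-21a-3p was −1.52 (SE 3.93, adjusted p 0.891), a fitted value that depends on how the counts of 0 are treated and is no bound. The difference between the experiments was 10.75 (SE 4.35), with an unadjusted p of 0.0220 and an adjusted p of 0.882 in edgeR. It rests on the 0 reads at serum 0 h, the only G0 library of the serum experiment.

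The arm ratio, given as 3p reads for 100 5p reads, does not depend on scaling. It was 0 at serum 0 h (limit 0.0122), 0 at 12 h (limit 0.0273), 0.235 at 16 h (0.203 to 0.270), 0.153 at 20 h (0.0891 to 0.245) and 0.363 at 24 h (0.246 to 0.515). On contact day 0 it was 0.0917 (0.0396 to 0.181), on day 3 it was 0.270 (0.213 to 0.337) and on day 5 it was 0.0943 (0.0712 to 0.122). Both G1 libraries of the serum series stood at opposite ends, with the highest ratio at 24 h and none at 12 h. The interval of 20 h overlapped those of 16 h and of contact days 0, 3 and 5.

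**Figure D2:**
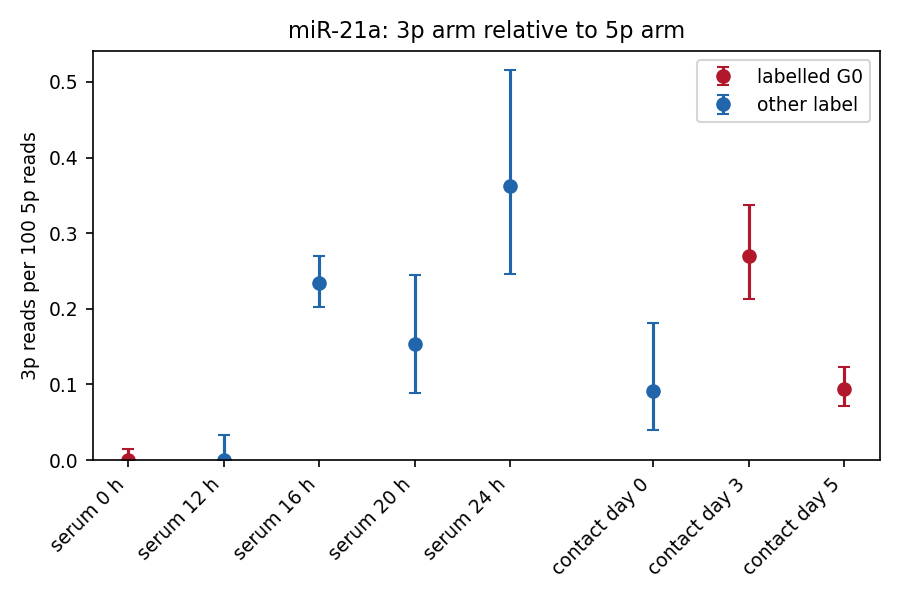
Reads of miR-21a-3p for 100 reads of miR-21a-5p in each library, with G0 libraries in red, the other 5 in blue, and bars for the 95% exact binomial interval. The ratio ran from 0 at serum 0 h and 12 h to 0.363 at 24 h, and contact day 3 (0.270) lay above both day 0 (0.0917) and day 5 (0.0943).

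With counts of 0 set to 3, the mean log2 ratio of 3p to 5p was −10.53 in the 3 G0 libraries and −9.62 in the other 5, a difference of −0.90 (exact permutation test over 56 splits, 2-sided p 0.5, adjusted p 0.533 over 5 measures). The smallest p this design allows is 0.0357, and after adjustment 0.0595, so none of the 5 measures could pass 0.05. Pooled over the libraries, the hairpin gave 384 3p reads and 234980 5p reads, or 0.163 for 100. Of the 131 hairpins with both arms counted, 7 had a smaller share of their minor arm. Of the 22 hairpins with at least 10000 reads of the major arm, 6 did, and the median of those 22 was 1.31 for 100.

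In most libraries the 2 arms also differed in how sharply their 5′ end was set, judged on reads of 18 nt or more that matched the hairpin throughout. For the 5p arm, 97.2% (contact day 3) to 99.3% (serum 12 h) of such reads began at the same base. A start 1 base earlier took 0.529% to 1.45% and 1 base later 0.0285% to 1.46%. A shifted start moves the seed, so nearly all 5p reads carried the seed shown above. No read came from the loop between the arms.

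For the 3p arm, the start was less uniform in most libraries. At serum 0 h, 65 hairpin-matching reads lay on the 3p side although none was counted for the arm: 30 were 18 nt long and began at the main start, and 35 began 1 base later. The 18-nt form, at chr11:86584086-86584103, is shown because the count of 0 at this time rests on it; the part of that library's many short inserts (28.1% of reads) was not tested.
18-nt form of miR-21a-3p: caacagcagucgaugggc
At 16 h, 216 of 266 such reads had the main start and 35 began 1 base later. On contact days 0, 3 and 5 the main start took 11 of 15, 80 of 116 and 44 of 72 reads. It took 17 of 17 at 20 h and 26 of 27 at 24 h, so the arms did not differ clearly there. The serum 12 h library had no read on the 3p side. The 0 at serum 0 h therefore holds for reads of at least 20 nt with the main start, and the 0 at 12 h for any start among hairpin-matching reads.

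miR-21a-5p reads were 22 or 23 nt long for the most part. The 22-nt length took 52.2% of reads at serum 0 h, 43.0% at 12 h, 41.5% at 16 h, 41.5% at 20 h and 37.4% at 24 h. On contact days 0, 3 and 5 it took 37.7%, 51.5% and 52.2%. The 22-nt length was thus most frequent in the 3 G0 libraries and took a smaller share in each of the other 5. The 23-nt length took 31.2%, 42.1%, 44.0%, 45.5% and 48.4% at serum 0, 12, 16, 20 and 24 h, and 49.3%, 35.2% and 37.0% on contact days 0, 3 and 5.

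Counting only reads that match the hairpin to their last base, the ratio of the 23-nt to the 22-nt form was 0.584 (0.567 to 0.601) at serum 0 h, 0.957 (0.919 to 0.997) at 12 h, 1.04 (1.03 to 1.06) at 16 h, 1.07 (1.03 to 1.11) at 20 h and 1.26 (1.21 to 1.32) at 24 h. On contact days 0, 3 and 5 it was 1.30 (1.24 to 1.36), 0.677 (0.660 to 0.694) and 0.701 (0.689 to 0.713). All 3 G0 libraries lay below all 5 others, and no interval of a G0 library reached one of the others. The form with the extra C was the lesser one in arrested cells and about equal or the greater one in the rest. This ratio was chosen after its values were seen, so it is given with no test. The part of the many short inserts at serum 0 h in its value was not tested.

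**Figure D3:**
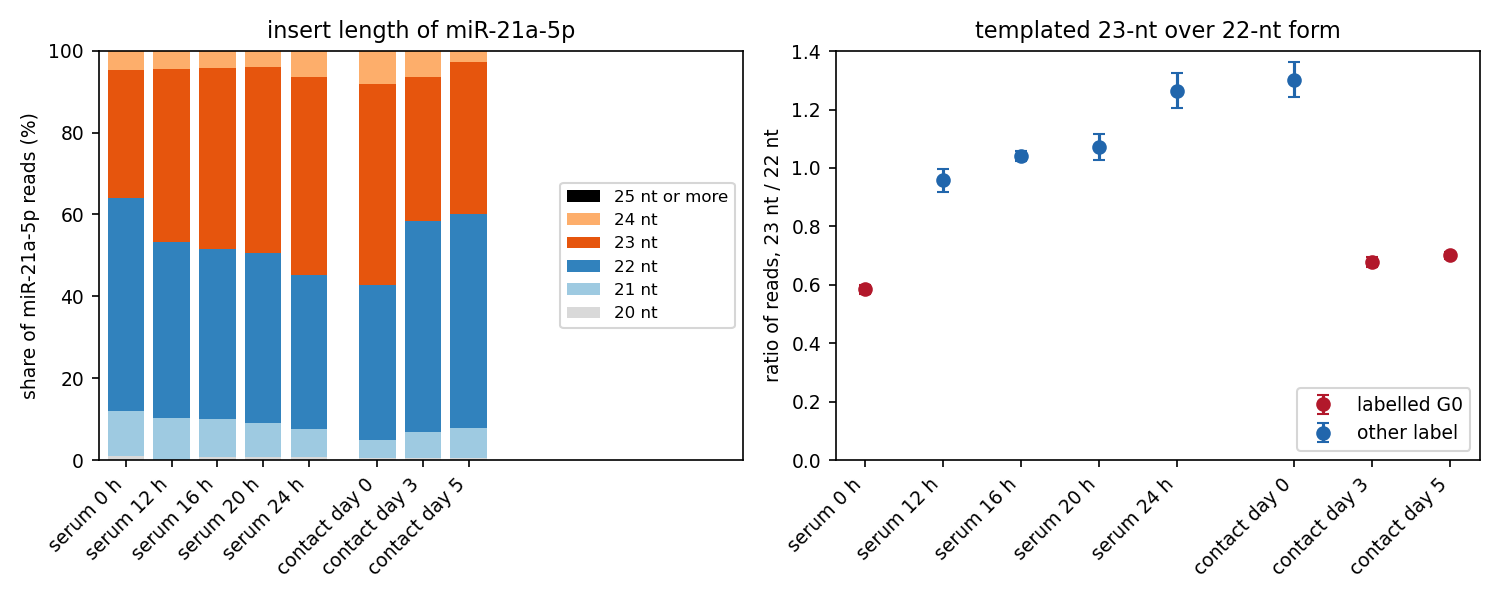
Left, the insert lengths of miR-21a-5p as a share of its reads (%) in each library. Right, the ratio of the templated 23-nt form to the templated 22-nt form with 95% exact intervals, G0 libraries in red and the other 5 in blue; the G0 libraries lie at 0.584 to 0.701 and the others at 0.957 to 1.30.

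The same ratio, longer over shorter of the 2 commonest templated forms, was computed for the 31 miRNAs with at least 500 reads in every library. The G0 libraries lay below all others for 12.9% of them, 4 miRNAs, and above all others for 0.0%. The 4 were miR-21a-5p, miR-221-3p, miR-222-3p and miR-99b-5p. For miR-221-3p, which is known to repress the cell-cycle inhibitor p27, the 23-nt to 22-nt ratio was 0.755, 0.808 and 0.836 at serum 0 h and on contact days 3 and 5, against 1.29 to 1.90 in the other libraries. For miR-222-3p, its cluster partner, the 23-nt to 21-nt ratio was 1.01 to 1.45 in G0 libraries, against 1.69 to 2.88 elsewhere. For miR-99b-5p the 22-nt to 21-nt ratio was 0.590 to 0.794, against 0.900 to 1.11.

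The mean length of miR-21a-5p averaged 22.3 nt in the 3 G0 libraries and 22.5 nt in the other 5, a difference of −0.136 nt. By an exact permutation test the 2-sided p was 0.0714, or 0.357 adjusted over the 5 measures, where 0.0595 is the smallest possible. The groups met at contact day 3 and serum 12 h, which had equal mean lengths of 22.41 nt to 2 decimals. Of the 31 abundant miRNAs, the G0 libraries had the shorter mean length throughout for 6.45%, and miR-21a-5p was not among these. For miR-21a-5p this rests on contact day 3 (22.4087 nt) lying just above serum 12 h (22.4082 nt). The few 3p reads had a mean length of 21.7 nt in 2 G0 libraries and 21.5 nt in 4 others, with an exact permutation p of 0.533, where 0.133 is the smallest possible.

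Untemplated bases at the 3′ end were uncommon on miR-21a-5p. In the serum experiment, 3.62% of its reads carried one or more at 0 h, 4.87% at 12 h, 3.76% at 16 h, 3.84% at 20 h and 5.97% at 24 h. On contact days 0, 3 and 5 the share was 7.07%, 5.82% and 2.47%. Of the G0 libraries, contact day 5 had the lowest share of all and contact day 3 exceeded serum 12, 16 and 20 h. The groups thus overlapped across the experiments. Within the contact experiment, days 3 and 5 lay below day 0. Within the serum experiment, 0 h was lowest, but its interval (3.39% to 3.87%) met those of 16 h (3.64% to 3.90%) and 20 h (3.49% to 4.22%). Among the 31 miRNAs with at least 500 reads in every library, the G0 libraries all had the lower share for 25.8% and all the higher for 6.45%. For miR-21a-5p the mean share was 3.97% in G0 and 5.10% in the others, a difference of −1.13 percentage points (exact permutation test, 2-sided p 0.286, adjusted p 0.476).

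Among those 31 miRNAs, miR-21a-5p was at rank 29 in this share, with a mean of 4.68% against a median miRNA of 13.3%. The addition most often seen was a single adenosine, on 2.47%, 3.42%, 2.63%, 2.58% and 4.45% of reads at serum 0, 12, 16, 20 and 24 h, and on 5.39%, 4.80% and 1.85% on contact days 0, 3 and 5. Within the read, at positions 11 to 20, single substitutions to A averaged 0.0257% to 0.0796% per position. This is a rough, somewhat low background from sequencing errors and the like, since the mean includes positions that already hold A. Single substitutions to any base averaged 0.207% to 0.361% per position and reached 1.26% at position 15 at serum 0 h.

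The adenosine sat mainly on the 23-nt end. After 23 templated bases, 5.77% of reads had a single A at serum 0 h, 7.32% at 12 h, 4.20% at 16 h, 3.61% at 20 h and 6.91% at 24 h. On contact days 0, 3 and 5 this was 9.28%, 11.3% and 3.88%. After 22 templated bases, it was 1.11%, 0.332%, 1.64%, 2.10% and 2.13% in the serum series and 0.695%, 0.555% and 0.638% in the contact series. The share was higher on the 23-nt end in 8 of 8 libraries, and the intervals did not overlap even at 20 h (3.12% to 4.15% after 23 bases, 1.71% to 2.55% after 22).

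Such a bias to the longer form was common. Of 19 miRNAs for which the next encoded base after both forms is not A, the A was more frequent on the longer form in all 8 libraries for 52.6%, and less frequent in all 8 for 1 (let-7b-5p). For miR-21a-5p the median ratio over the libraries was 5.63. The 3 G0 libraries held the highest value (contact day 3) and one near the lowest (contact day 5), so the adenosine on the 23-nt end did not separate them from the rest.

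**Figure D4:**
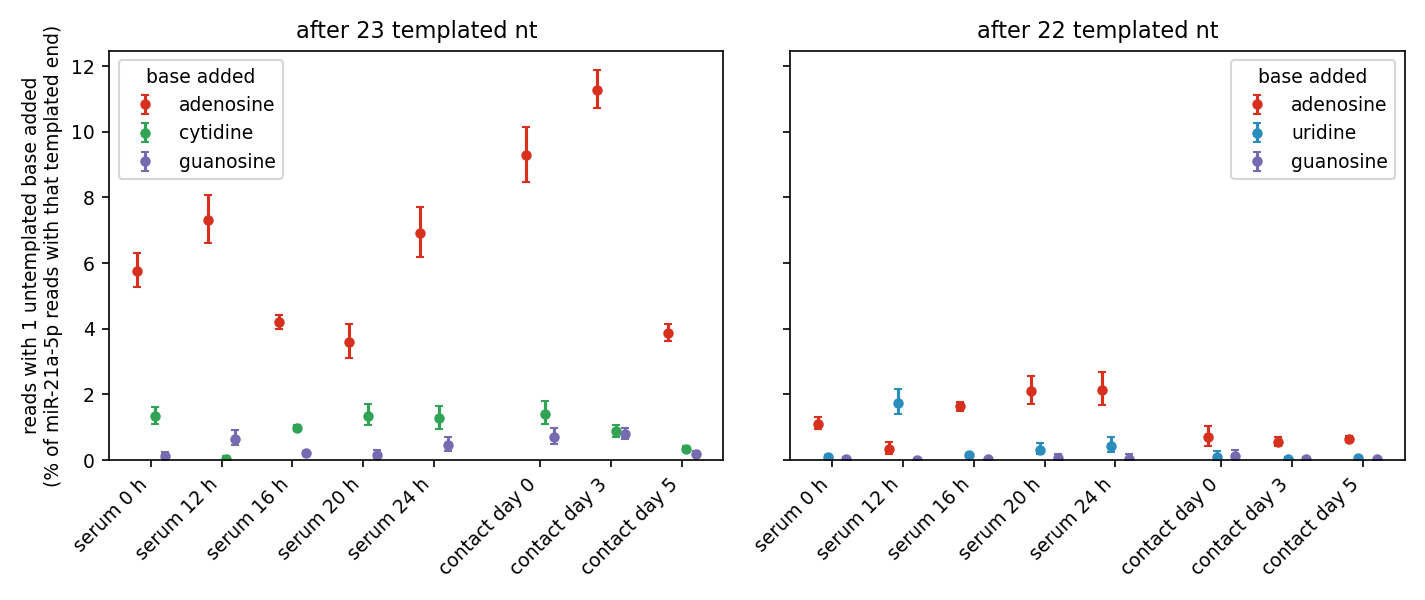
Share (%) of miR-21a-5p reads with exactly 1 untemplated base, among reads that end at 23 (left) or 22 (right) templated bases, by the base added, with 95% exact binomial intervals. Adenosine on the 23-nt end ran from 3.61% to 11.3%, above adenosine on the 22-nt end (0.332% to 2.13%) in every library.

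Other additions were rarer. A cytidine on the 23-nt end was found on 0.0204% (1 read, serum 12 h) to 1.41% of the reads with that end, and a guanosine on 0.136% to 0.805%. An added U cannot be told from the encoded base there, but it can after 22 bases. At that end it was found on 1.74% of reads at serum 12 h (84 reads) and on 0.0401% to 0.425% in the other 7 libraries. This was the one library in which U was more frequent than A after 22 bases. Substitutions to C, G or U inside the read were not counted apart, so these additions have no background of their own.

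miR-21a-3p had untemplated bases on 29 of 194 reads at 16 h (14.9%), 0 of 17 at 20 h, 7 of 31 at 24 h (22.6%), 1 of 8 on contact day 0 (12.5%), 12 of 78 on day 3 (15.4%) and 20 of 56 on day 5 (35.7%). The mean was 25.5% in the 2 G0 libraries with reads and 12.5% in the other 4, with wide counting errors (exact permutation test, 2-sided p 0.267, adjusted p 0.476, smallest possible p 0.133).

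The miRNAs whose level most resembled that of miR-21a-5p were ranked by Pearson's r of log2(CPM + 1) over the 8 libraries, among 72 miRNAs with at least 100 reads in each. The 5 highest were miR-143-3p (r 0.965), miR-322-5p (0.948), miR-379-5p (0.946), miR-152-3p (0.880) and miR-29c-3p (0.855). These values describe 8 points that share libraries, depth and scaling. miR-143-3p, a miRNA of smooth muscle and fibroblasts, had 45651 CPM on contact day 5 and 5326 CPM at serum 12 h. miR-322-5p, of the cluster that also makes miR-503, had 25573 CPM on day 5 and 2750 CPM on day 0.

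The 2 lowest were miR-125b-5p (r −0.917) and miR-342-3p (−0.863). miR-125b-5p, another of the most abundant miRNAs here, had 29016 CPM on contact day 5 and 84912 CPM on day 0, opposite in order to miR-21a-5p. In the serum experiment it had 47668 CPM at 0 h and 119946 CPM at 12 h.

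**Figure D5:**
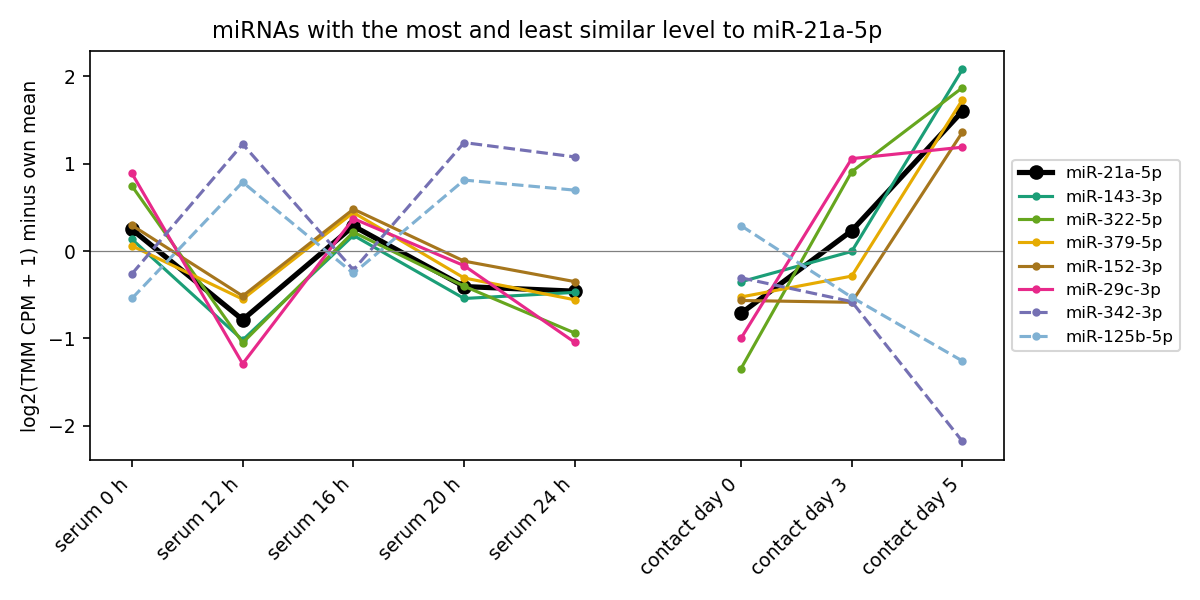
Level of miR-21a-5p (black), of the 5 miRNAs most like it (solid) and of the 2 least like it (dashed) in each library, as log2(TMM CPM + 1) minus the miRNA's own mean over the 8 libraries. miR-143-3p (r 0.965) follows miR-21a-5p, with both highest on contact day 5, where miR-125b-5p (r −0.917) is lowest.

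miR-21 is grouped in the literature with miRNAs that growth factors or serum induce. Of the 9 listed, all were tested and 0 passed the edgeR threshold in either direction. Only 2 had a positive G0 difference, miR-21a-5p and miR-31-5p (0.78), and 7 a negative one, with a median of −0.76 against −0.22 over all 349 miRNAs. Of the negative ones, miR-146a-5p (0 to 17 reads a library, SE 2.83), miR-212-3p (0 to 23, SE 2.33) and miR-132-3p (2 to 58, SE 1.49) had few reads. Their signs are uncertain. The most negative was miR-155-5p, a miRNA of immune activation, at −3.38 (adjusted p 0.0995 in edgeR). It had 45.7 CPM at serum 0 h and 1841 and 958 CPM on contact days 3 and 5, against 1348 to 4018 CPM in the other libraries. miR-222-3p stood at −0.76 and miR-221-3p at −0.27.

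Of the 8 miRNAs linked to fibrosis or mesenchymal cells, all were tested, 5 had a positive G0 difference and 3 a negative one, and 0 passed the edgeR threshold. Their median was 1.02. miR-29c-3p and miR-29b-3p, which are known to repress collagens, stood at 1.66 (adjusted p 0.256) and 1.61 (adjusted p 0.441) in edgeR. The other listed miR-29, miR-29a-3p, went the other way, at −0.51 (adjusted p 0.647 in edgeR). It had more reads than both in every library, 8433 to 90007. miR-199a-3p stood at 1.16 and miR-143-3p at 1.09, close to the 1.11 of miR-21a-5p. miR-145a-5p, made from the same primary transcript as miR-143-3p, stood at −0.94.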

How the data were processed

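Small RNAs of 8 NIH-3T3 libraries were analysed from the deposited files, which list each distinct 36-nt read with its count as the authors deposited it, adapter included and not normalised. Library preparation is given in the labels only by citation, and how reads were called or filtered is not given in the sources used here.

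The 3′ adapter, found in the reads, was removed where at least 6 bases were seen (1 mismatch for 8 bases), and inserts of 16 to 30 nt were kept. Mature arms were defined from reads of 18 to 26 nt that matched GENCODE M21 hairpins, with at least 10 reads and 50% at 1 start. Of 441 arms, 370 were named by RefSeq and 71 by hairpin symbol, and 52 come from several hairpins. Reads were counted by the first 20 bases. A base is untemplated when it lies past the longest match to the hairpin.

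edgeR 4.0.16 (R 4.3.3; robust quasi-likelihood, TMM, the experiment as a term, 5 residual degrees of freedom) took the 349 miRNAs with at least 10 CPM in at least 3 libraries. The SE is derived from its F value. The G0 group pools conditions, and nothing in the labels says that its libraries are replicates, so its p-values speak only to how much these particular libraries vary. The 5 per-library measures were compared by exact permutation (Python 3.11.15, scipy 1.17.1), with 1 value a library and no experiment term. Alternatives were DESeq2 1.42.0, other scalings, filters, match lengths, adapter rules and leaving out each library. The scripts were tested on simulated data.

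Shares have 95% Clopper-Pearson (exact binomial) intervals and ratios exact conditional ones, and a count of 0 has an upper limit of 3 counts. The figures draw the exact interval at counts of 0, which is wider than this limit (0.00155% against 0.00126% at serum 0 h). Reads carry no molecular identifiers, so both cover counting error only. Single-library ratios were compared among miRNAs with at least 100 reads in either library. In the shares of miRNAs given for them, a ratio of at least 2 or at most 0.5 counted only where its interval excluded 1. The miRNAs named are both arms, those sharing a seed, the 5 most and 2 least alike in level, and the listed groups. No list of miRNAs alike to the 3p arm, nor of arm pairs alike in ratio, is given, because the 3p arm had 0 reads in 2 libraries. The members, lists and ratios were chosen with earlier results of these data known.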

Additional observations from a re-analysis of the deposited data

Results flagged for a closer look

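Among the 5 libraries not labelled G0, serum 16 h stood far from the others in the level of miR-21a-5p, at 82549 CPM against 39255 to 51081 CPM in the other 4. It is also the library with the most miRNA reads (892593). Of 8 measures examined for such a sample this was the only one, and chance marks about 1 group in 20.

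At serum 0 h, where the 3p arm had no read of 20 nt or more at its main start, 30 reads of 1 distinct 18-nt sequence began at that start. Such reads of 16 to 19 nt numbered 0 at 12 h, 56 at 16 h (of 3 distinct sequences), 0 at 20 h and 2 at 24 h, and 4, 14 and 8 on contact days 0, 3 and 5.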

How the results depend on the processing

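The G0 difference of miR-21a-5p stayed positive and short of the threshold in all alternatives, at 0.96 to 1.21 across settings and 0.53 to 1.97 with 1 library left out (lowest adjusted p 0.223). The count of miRNAs called, 2 in the edgeR test, was 8 with no filter on low counts, 1 with no experiment term, 14 with the DESeq2 Wald test, and 0 to 12 with 1 library left out (0 without serum 0 h or 20 h, 12 without 16 h). The difference of miR-21a-3p turned positive with no experiment term (0.47), with the first 18 bases matched (0.64) and without serum 0 h, ranging from −8.41 to 2.62 with 1 library left out. Matching 18 bases admits the 18-nt reads at 0 h. The log2 arm ratio difference turned to 0.10 with 18 bases and ranged from −1.90 to 0.33. The 3p length difference turned to −0.96 nt with 18 bases and ranged from −0.10 to 0.47 nt. The 5p length difference stayed negative, at −0.169 to −0.103 nt with 1 library left out. With 18 bases matched, or with 10 adapter bases and no mismatch, its unadjusted permutation p was 0.0357, the smallest possible (adjusted p 0.179). Of 11 single-library ratios of miR-21a-5p, 4 were at least 2-fold with TMM, 2 with total miRNA reads and 2 with DESeq2 size factors. The log2 ratio of 0 h over 16 h became 0.16 with total reads, and that of 24 h over 20 h 0.0386 with total reads and 0.23 with DESeq2 size factors. The cause of the other changes was not tested. No paired analysis was possible because each condition has 1 library. The 8 to 194 reads of the 3p arm, where it had any, limit every statement on it.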
